A study of Caenorhabditis elegans with 31 samples.

Results

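The lbp genes of Caenorhabditis elegans encode lipid-binding proteins of the fatty acid-binding protein family. The 9 genes described here, lbp-1 to lbp-9, were taken by their gene name alone out of 46904 features, and all 9 were found and counted.

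Nuclei were isolated from whole adult worms, and the RNA of each nucleus was read with UMIs (unique molecular identifiers), random tags by which copies of 1 captured molecule are counted once. The study asks how the exposure of ancestors to ethanol is seen in the expression of later generations. Its 31 libraries lie in 5 batches. Every group, controls included, was of the strain JK560, which carries the allele fog-1(q253), and per the labels the worms have a germline but no fertilised embryos. The gene fog-1 is known to direct germ cells to become sperm. Normal worms of generation P0, with no ethanol or water treatment named, gave 1 library of sorted nuclei (batch 1) and 4 of unsorted nuclei (1 in batch 1, 3 in batch 3). All other libraries were of unsorted nuclei. The water group had 5 libraries in F1 (2 in batch 2, 3 in batch 5) and 5 in F3 (2 in batch 2, 3 in batch 4). The group of 0.05% ethanol had the same numbers in the same batches. The group of 0.5% ethanol had 3 libraries in F1 (batch 5) and 3 in F3 (batch 4), so its generation coincided with its batch. Each library pooled many worms, and the labels do not say whether replicates were separate cultures, so p-values measure the spread between these libraries, which may be technical. All ethanol groups of a generation and batch share their water libraries.

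Fatty acid-binding proteins are small barrel-shaped carriers that hold a fatty acid or a similar lipid in a central cavity and move it through the water of the cell. In C. elegans, LBP-1, LBP-2 and LBP-3 carry predicted secretion signals, while the other members are thought to stay inside the cell. LBP-8 is known as a chaperone that carries a lipid signal from intestinal lysosomes, downstream of the lipase LIPL-4, to the nuclear receptors NHR-49 and NHR-80. LBP-3 is known as a secreted carrier in a lipid signal from the intestine to neurons, and loss of lbp-5 raises fat storage.

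The deposited matrices held 85180 nuclei and 237833993 UMIs, with 1218248 to 25500166 UMIs per library and medians of 606 to 2149.5 UMIs per nucleus. After removal of 2168 likely doublets, 28 clusters were found without using the lbp genes to build them, and 12 of them could be named from marker genes, in 8 classes. The 16 unnamed clusters held 39.1% of nuclei. The 3 libraries with replicate number 2 of batch 5 stood apart, with 1218248 to 1439256 UMIs in all and rrn-3.1, a ribosomal RNA gene, made up 10.1% to 13.6% of them, where the 6 remaining batch 5 libraries had 0.902% to 4.39%. Libraries of the same batch shared up to 233 nucleus barcodes (median 27.5 over 104 pairs), against at most 10 between batches, and 3824 nuclei (4.49%) had a barcode found in another library of their batch. In 0.05% ethanol F1 batch 2 replicate 1 this share was 15.9%. Pairs of nuclei with the same barcode fell in the same cluster in 74.7% of cases within batches and 9.61% between batches. Where the shared barcodes came from was not tested.

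The genes lie in small groups. On chromosome X, lbp-3, lbp-1 and lbp-2 follow each other on the plus strand, with 986 bases between lbp-3 and lbp-1 and 797 between lbp-1 and lbp-2. On chromosome I, lbp-6 and lbp-5 lie 1890 bases apart on the minus strand. On chromosome V, lbp-7 and lbp-8 lie 10559 bases apart on the plus strand, and lbp-4 and lbp-9 lie elsewhere on the same chromosome. The identifiers run from WBGene00002253 for lbp-1 to WBGene00002260 for lbp-8, and lbp-9 is WBGene00021486. By the WBcel235 annotation, lbp-6 overlaps mec-6 on the other strand by 35 bases and lbp-9 overlaps Y40B10A.9 on the other strand by 5 bases, so reads from those ends may be shared, since the use of strand in counting is not given in the sources used here.

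The family was dominated by lbp-2. Per kilobase of exon, the mean level over the 31 libraries was 1996 CPM (counts-per-million, scaled to the UMIs of the library) for lbp-2, then 942 for lbp-6 and 754 for lbp-9. These 3 genes gave 52.9%, 18.02% and 13.6% of the family's 722441 UMIs. The secreted carriers lbp-1 and lbp-3 followed at 293 and 251 CPM per kilobase. The lowest were lbp-5 at 124, lbp-4 at 64.3, lbp-7 at 43.3 and lbp-8 at 14.5 CPM per kilobase, far below lbp-2.

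Between libraries the members varied to unlike degrees. Before scaling by length, lbp-2 stood at 1515 ± 548 CPM (SD, n = 31), from 470 to 2603. For lbp-6 the level was 497 ± 161 CPM (189 to 727), and for lbp-9 it was 425 ± 93.9 CPM (301 to 607). The most even members were thus lbp-9 and lbp-4, the latter at 38.2 ± 8.76 CPM (25.4 to 57.5). Levels of 162 ± 63.9 CPM were seen for lbp-1 (75.0 to 392) and of 156 ± 49.03 CPM for lbp-3 (53.1 to 268). The scarcer members were lbp-5 at 59.8 ± 20.9 CPM (14.8 to 92.9), lbp-7 at 22.4 ± 10.7 CPM (8.21 to 48.2) and lbp-8 at 7.64 ± 3.67 CPM (1.64 to 18.3). The lowest library held only 2 UMIs of lbp-8, so single values of this gene carry little weight.

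**Figure D1:**
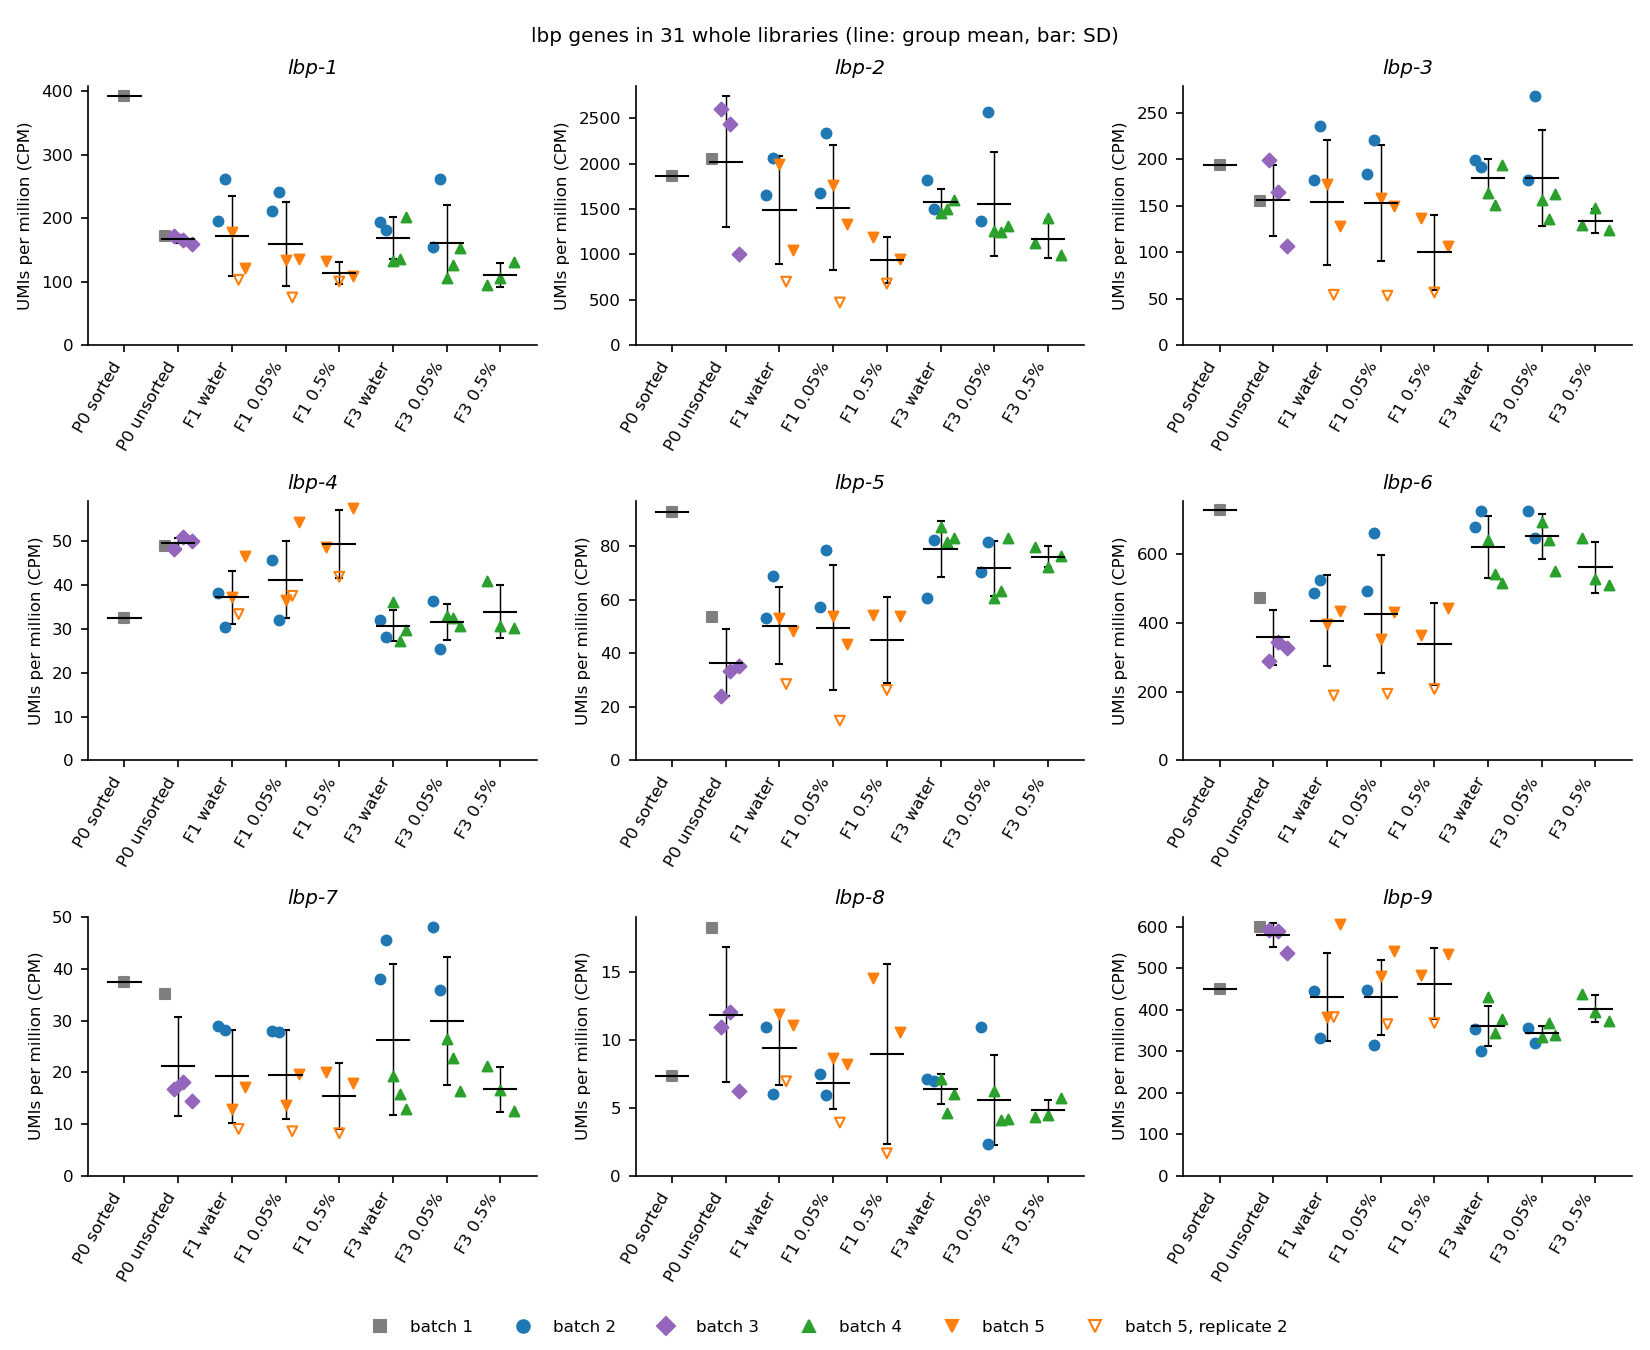
Level of each lbp gene in each of the 31 libraries, in CPM of the library on a linear axis from 0, by group; points are libraries coloured and shaped by batch, lines are group means and bars are SD. The range is widest for lbp-2, from 470 to 2603 CPM, and the values of lbp-7 in batch 2 lie above those of batches 4 and 5.

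In normal P0 worms, the library of sorted nuclei held the highest level of all 31 libraries for lbp-1 (392 CPM, the next at 262) and lbp-5 (92.9 CPM, the next at 87.0). For lbp-6 it held 727 CPM, level with a water (727 CPM) and a 0.05% ethanol library (726 CPM) of F3 in batch 2. The unsorted P0 libraries held 158 to 171 CPM of lbp-1, 24.1 to 53.7 CPM of lbp-5 and 288 to 474 CPM of lbp-6. The sorted library is single, and P0 shares no batch with the water or ethanol groups, so these levels were described and not tested. For lbp-2, the unsorted P0 libraries stood at 2054, 2603, 2435 and 1002 CPM, and the lowest of them, batch 3 replicate 3, also held fewer body wall muscle-like nuclei (5.66% of its nuclei, against 11.9% to 12.7% in the other 3). The part of that share in the level of lbp-2 was not tested. In sums over whole libraries, fewer nuclei of a type and less RNA per nucleus cannot be told apart. The level of lbp-9 was 580 ± 29.5 CPM in the 4 unsorted P0 libraries, and lbp-4 stood at 49.5 ± 1.22 CPM there.

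The members were then followed through the cell classes, as CPM of the UMIs of a class in each library, for libraries with at least 20 nuclei of the class. The names rest on markers such as myo-3 and unc-54 for body wall muscle-like, vit-2 and ges-1 for intestine-like and glh-1 and pgl-1 for germline-like nuclei. Epidermis-like nuclei reached that number in 9 libraries only and stand outside the order of classes. A class against another is a description, with no test, because the nuclei were grouped by the expression of the same libraries. Neighbours in the order of levels are said to differ beyond their spread where the mean of the differences within libraries was larger than the SD of those differences.

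Among the named classes, the secreted carriers lbp-2 and lbp-3 were highest in body wall muscle-like nuclei. In body wall muscle-like nuclei, lbp-2 stood at 3445 ± 1268 CPM (SD, n = 31 libraries), from 1385 to 6786, and this was the highest of its classes in 30 of 31 libraries. Pharyngeal muscle-like nuclei followed at 1945 ± 700 CPM, lower in 31 of 31 libraries and beyond the spread. Neuron-like nuclei held 1866 ± 1159 CPM, coelomocyte-like 962 ± 563 (n = 21), intestine-like 854 ± 305, germline-like 334 ± 139 and gonadal sheath-like 295 ± 191 CPM (n = 29), and epidermis-like nuclei held 1830 ± 414 CPM (n = 9). In that order only the steps from body wall to pharyngeal muscle-like and from intestine-like to germline-like nuclei exceeded the spread. The gene was among the 10 leading genes of the larger body wall muscle-like cluster, cluster 1, although the clusters were built without it. That cluster held 3658 ± 1306 CPM of lbp-2, while the second one, cluster 17, held 1617 ± 1086 CPM (n = 29), so the class level rests on cluster 1. Of the unnamed clusters, 4 lay above pharyngeal muscle-like nuclei: cluster 19, led by nlp-20, Y51H4A.8 and C02F5.14, at 3395 ± 1042 CPM (n = 27), cluster 21 at 2586 ± 713 CPM (n = 26), cluster 4 at 2541 ± 741 CPM and cluster 15 at 2012 ± 1153 CPM (n = 30).

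The profile of lbp-3 was much the same as that of lbp-2, at a lower level. In body wall muscle-like nuclei it stood at 294 ± 83.4 CPM (108 to 479), the highest class in 31 of 31 libraries, against 149 ± 40.4 CPM in pharyngeal muscle-like nuclei, a step beyond the spread. It fell off through neuron-like (124 ± 60.2 CPM), coelomocyte-like (95.2 ± 42.4, n = 21), intestine-like (83.7 ± 31.6) and gonadal sheath-like nuclei (77.3 ± 37.8, n = 29) to 37.2 ± 21.1 CPM in germline-like nuclei, with no neighbouring step beyond the spread. Epidermis-like nuclei held 211 ± 71.4 CPM (n = 9). Its highest clusters were unnamed: cluster 4, led by D1086.10, K10C2.7 and C35B1.4, at 479 ± 146 CPM, and cluster 21, led by nas-37, fipr-13 and col-155, at 389 ± 166 CPM (n = 26). Of the marker lists, cluster 4 came closest to uterus, with 2 markers raised. Cluster 21 came closest to body wall muscle, with 7 markers raised, but the gap to the next list was too small for a name.

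The third gene of the chromosome X group, lbp-1, was spread over more classes. Its mean was highest in coelomocyte-like nuclei, the scavenger cells of the body cavity, at 387 ± 325 CPM (n = 21, 107 to 1350), followed by neuron-like (255 ± 152), pharyngeal muscle-like (202 ± 67.8) and body wall muscle-like nuclei (167 ± 52.8 CPM). None of those steps exceeded the spread, and the first place of coelomocyte-like nuclei held in some batches only. In batch 2 they stood at 614 ± 82.4 CPM in F1 (n = 3) and 823 ± 413 CPM in F3 (n = 4), and at 641 CPM in the 1 library of batch 1. In batch 4 they stood at 182 ± 77.5 CPM (n = 7) and in batch 5 at 178 ± 44.3 CPM (n = 6), below the means of neuron-like (193 and 194 CPM) and pharyngeal muscle-like nuclei (192 and 182 CPM). Body wall muscle-like nuclei held more than intestine-like ones (77.0 ± 32.8 CPM) beyond the spread, in 30 of 31 libraries. Germline-like and gonadal sheath-like nuclei were lowest, at 55.5 ± 32.6 and 48.1 ± 45.2 CPM. The unnamed clusters 21 and 22 held 479 ± 228 (n = 26) and 425 ± 169 CPM (n = 24) of lbp-1, and cluster 22 was led by acs-3, gst-41 and Y113G7A.16.

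Intestine-like nuclei held the highest mean level of lbp-5, lbp-6 and lbp-8 among the classes. For lbp-6 this was 854 ± 270 CPM (286 to 1298), highest in 23 of 31 libraries, and gonadal sheath-like nuclei followed at 739 ± 416 CPM (n = 29), within the spread. The levels of lbp-6 in coelomocyte-like, pharyngeal muscle-like and neuron-like nuclei were 461 ± 232 (n = 21), 446 ± 143 and 419 ± 153 CPM, and epidermis-like nuclei held 649 ± 135 CPM (n = 9). Body wall muscle-like nuclei held 396 ± 128 CPM, more than germline-like ones (317 ± 165) beyond the spread.

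For lbp-5, whose loss is known to raise fat storage, intestine-like nuclei stood at 99.5 ± 35.9 CPM and gonadal sheath-like nuclei at 72.0 ± 45.8 CPM (n = 29), a step within the spread. Pharyngeal muscle-like nuclei held 60.1 ± 20.7 CPM, coelomocyte-like 56.0 ± 37.9 (n = 21), neuron-like 39.3 ± 16.3, germline-like 38.3 ± 20.2 and body wall muscle-like 37.7 ± 15.5 CPM. No neighbouring step exceeded the spread. The unnamed cluster 14, led by C52D10.3, R10E8.7 and Y32B12C.5, held 208 ± 80.7 CPM of lbp-5, more than any named cluster. Of the marker lists, cluster 14 came closest to intestine, with 6 markers raised. Its mean log2 fold of 0.666 over that list missed the 0.8 set for a name. The lysosomal chaperone gene lbp-8 stood at 15.9 ± 9.63 CPM in intestine-like nuclei, highest in 15 of 31 libraries, and at 8.78 ± 9.66 CPM (n = 29) in the next class, gonadal sheath-like, within the spread. In the other classes lbp-8 had means of 4.56 to 7.95 CPM, and of 1.18 CPM in epidermis-like nuclei (n = 9).

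In contrast to its chromosome V neighbour lbp-8, lbp-7 had its highest class mean in coelomocyte-like nuclei, at 50.7 ± 30.9 CPM (n = 21), within the spread of the intestine-like level of 39.1 ± 15.7 CPM. Intestine-like nuclei stood above pharyngeal muscle-like ones (18.5 ± 13.3 CPM) beyond the spread, in 30 of 31 libraries. Epidermis-like nuclei held 41.5 ± 14.5 CPM (n = 9). The remaining classes had means of 12.6 to 17.3 CPM.

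Germline-like nuclei had the highest mean level of lbp-4 and, at the clustering resolution used, of lbp-9. With coarser clusters (resolution 0.5) gonadal sheath-like nuclei were higher for lbp-9, at 605 against 539 CPM. For lbp-9 the level was 531 ± 91.8 CPM (406 to 747), highest in 20 of 31 libraries, against 436 ± 124 CPM in pharyngeal muscle-like nuclei, within the spread. The other classes in that order lay between 365 ± 101 CPM in intestine-like and 404 ± 186 CPM (n = 21) in coelomocyte-like nuclei, and epidermis-like nuclei held 330 ± 88.7 CPM (n = 9). Its highest cluster was the unnamed cluster 8, led by C44B7.5, T04G9.7 and B0513.4, at 680 ± 132 CPM. Of the marker lists, cluster 8 came closest to gonadal sheath, with inx-8 and inx-9 raised, too few for a name. For lbp-4 germline-like nuclei held 54.8 ± 13.6 CPM and intestine-like nuclei 37.8 ± 13.8 CPM, the former higher in 27 of 31 libraries, but the step lay within the spread.

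**Figure D2:**
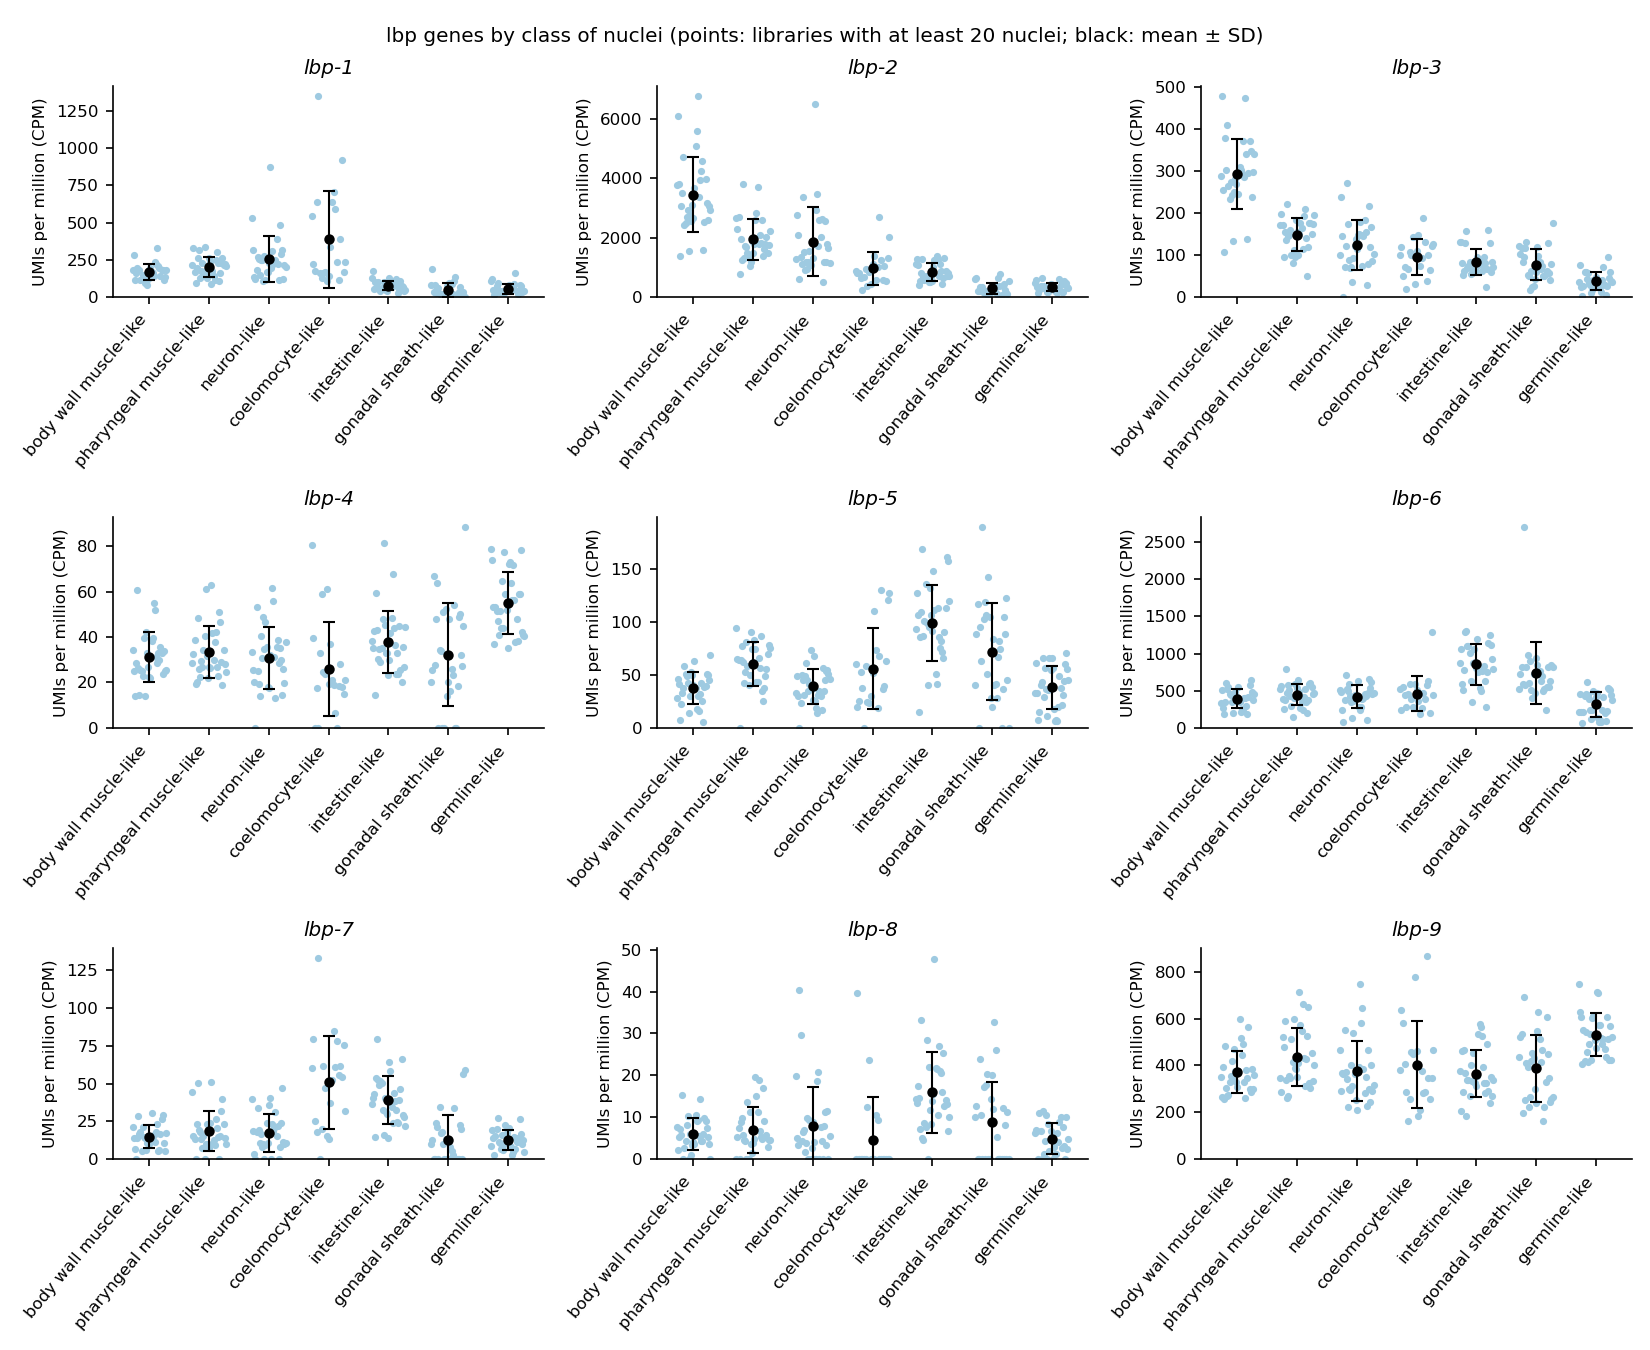
Level of each lbp gene by cell class, in CPM of the class in a library, on a linear axis from 0; points are libraries with at least 20 nuclei of the class, and black points with bars are means with SD. For lbp-2 and lbp-3, body wall muscle-like nuclei are highest at 3445 and 294 CPM, while lbp-6 peaks in intestine-like nuclei at 854 CPM and lbp-9 in germline-like nuclei at 531 CPM.

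The share of nuclei with at least 1 UMI was compared after thinning each nucleus to 500 UMIs, since the median depth was 1621 UMIs in body wall muscle-like, 1817 in intestine-like and 710 in germline-like nuclei. Free RNA can place UMIs in nuclei that do not express a gene, so the share in germline-like nuclei was set beside each value. For lbp-2 the share was 55.6% (95% Wilson interval 54.5 to 56.7, counting error only) in body wall muscle-like and 14.6% (14.1 to 15.1) in germline-like nuclei. For lbp-3 it was 11.3% against 2.03%, and for lbp-6 it was 32.98% in intestine-like against 15.7% in germline-like nuclei. For lbp-5 the shares were 5.02% in intestine-like and 2.26% in germline-like nuclei.

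For lbp-1 the thinned share was 13.02% (10.9 to 15.4) in coelomocyte-like and 2.98% in germline-like nuclei, and for lbp-7 it was 2.88% against 0.744%. Before thinning, the shares were 75.4% for lbp-2 in body wall muscle-like and 69.0% for lbp-6 in intestine-like nuclei, against 20.5% and 23.6% in germline-like nuclei. For lbp-8 the thinned share was 0.939% in intestine-like and 0.288% in germline-like nuclei, a few nuclei in a class. For lbp-9, highest in germline-like nuclei, the share was 22.3% there and 17.2% in intestine-like nuclei, and for lbp-4 it was 2.57% and 1.93%. The thinning left out 529 of 13663 nuclei of water F1, 182 of 12295 of 0.05% ethanol F1, 272 of 8605 of 0.5% ethanol F1 and 0 of the other groups.

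Across the 28 clusters, profiles of log2(CPM + 1) were compared by Pearson r, as a description without a p, because clusters share libraries and depth. Neighbours on the chromosome had like profiles in part of the family: r was 0.938 for lbp-2 and lbp-3, 0.761 for lbp-1 and lbp-2, 0.690 for lbp-1 and lbp-3, and 0.898 for lbp-5 and lbp-6. For lbp-7 and lbp-8 it was 0.335. For lbp-4 and lbp-9, which are far apart, r was 0.685.

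Among 11965 genes with at least 500 UMIs, the profile most like that of lbp-2 was that of the transthyretin-related gene ttr-24 (r = 0.996), followed by ttr-25 (0.995) and F37H8.5 (0.987). For lbp-3 the closest genes were nrf-5 (0.955), Y57G11C.40 (0.952) and lec-5 (0.946), and for lbp-1 they were C32D5.8 (0.873), T05E11.9 (0.857) and the aquaporin gene aqp-2 (0.850). The intestine-like members were closest to ttr-49 (0.939), T05E12.6 (0.928) and R09F10.1 (0.926) for lbp-5 and to hpo-15 (0.922), C18E9.5 (0.913) and F22H10.3 (0.907) for lbp-6. The metallothionein gene mtl-1 (0.920) led for lbp-8, before clec-65 (0.879) and asm-3 (0.873), while ZK593.3 (0.871), the lysozyme gene ilys-3 (0.870) and the peptide transporter gene pept-1 (0.860) were closest to lbp-7. For lbp-9 the closest was cey-2 (0.861), which encodes a Y-box protein of the germline, before F15D4.5 (0.832) and ZC434.8 (0.8288). For lbp-4 the closest were F12F6.7 (0.954), D2089.8 (0.949) and the Sm-like protein gene lsm-4 (0.949).

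**Figure D3:**
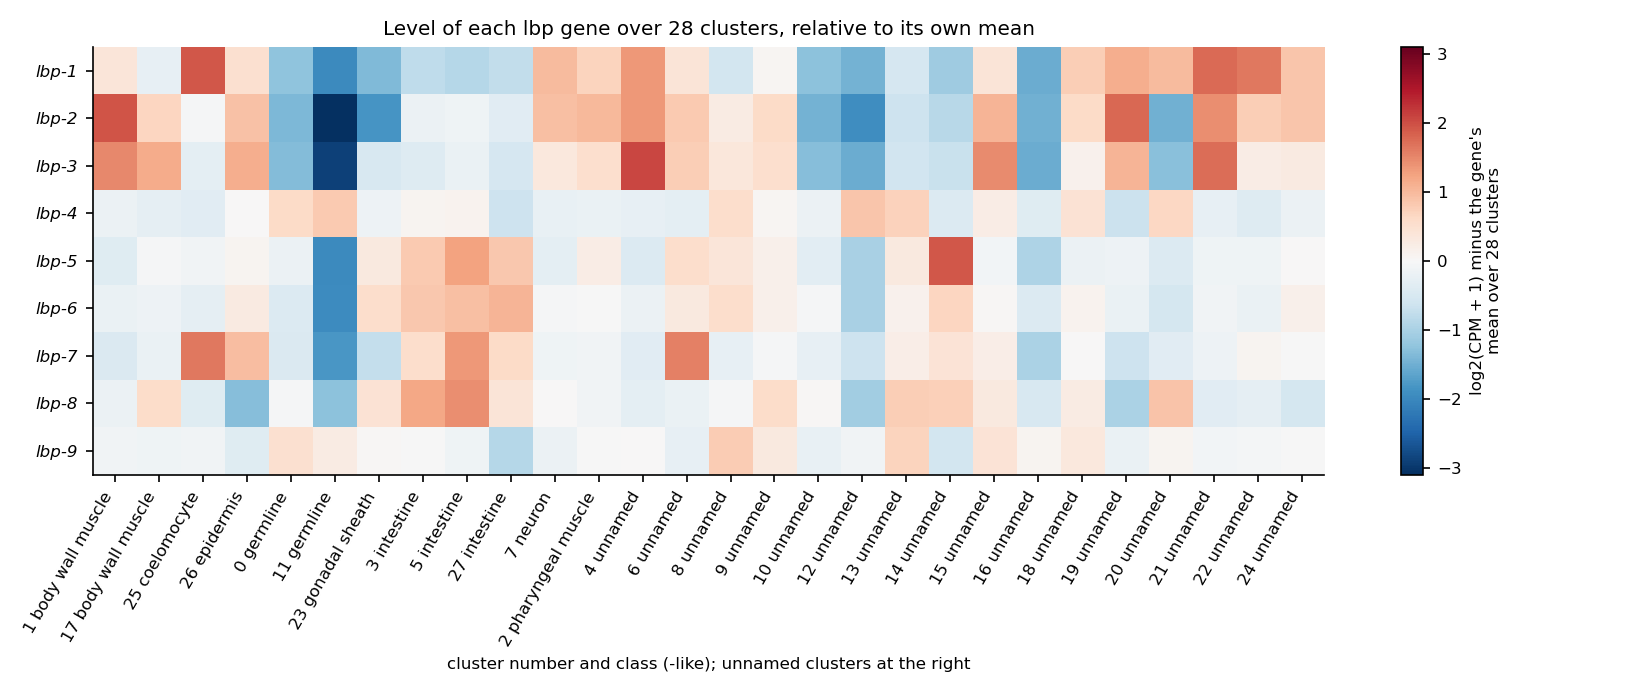
Level of each lbp gene in the 28 clusters, as the deviation of log2(CPM + 1) from the gene's mean over clusters, with clusters named by number and class. Red marks levels above and blue levels below the gene's mean, and the rows of lbp-2 and lbp-3, with an r of 0.938, follow each other, as do those of lbp-5 and lbp-6, with an r of 0.898.

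The main question of the study was put to the family by comparing ethanol with water of the same generation within batches, in counts summed over each library. None of the 9 members was called in any of the 4 comparisons at an adjusted p below 0.05 (edgeR's quasi-likelihood test, two-sided, Benjamini-Hochberg adjustment over 14505 genes). All 9 passed the filter on low counts. Of all genes, 0.0% were called with 0.05% in either generation, and 0.0% with 0.5% in either generation. At an unadjusted p below 0.05 there were 0 members in each comparison, against 0.841% (F1) and 0.965% (F3) of genes at the lower dose and 1.89% (F1) and 4.53% (F3) at the higher. DESeq2 also called 0 members in each.

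Individual levels overlapped in part of the comparisons. In F1, lbp-2 stood at 1652, 2058, 1998, 699 and 1051 CPM in the water libraries (the first 2 of batch 2, the others of batch 5) and at 1674, 2338, 1762, 470 and 1339 CPM in 0.05% ethanol. The 3 libraries of 0.5% ethanol in F1 held 1191, 679 and 947 CPM. The replicate 2 libraries of batch 5 were lowest in each of the 3 groups, and the ranges of both ethanol groups overlapped that of water. Taken by number, each of the 3 libraries of 0.5% ethanol lay below the water library of the same number.

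In F3, lbp-2 stood at 1822, 1500, 1458, 1499 and 1604 CPM in water (the first 2 of batch 2, the others of batch 4) and at 1364, 2573, 1263, 1252 and 1316 CPM in 0.05% ethanol. The 3 libraries of 0.5% ethanol in F3 held 1122, 1399 and 988 CPM, all below the 3 water libraries of batch 4. The share of all genes that separate so between these libraries is not given here. The fitted log2 change of lbp-2 in 0.5% ethanol was −0.45 (SE 0.35) in F1 and −0.31 (SE 0.35, edgeR adjusted p 0.957) in F3.

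The member nearest the threshold was lbp-1 in 0.5% ethanol in F3. Its levels were 94.3, 106 and 131 CPM in ethanol against 132, 135 and 202 CPM in the water libraries of batch 4. The groups did not overlap, by a narrow margin. Also lower in ethanol without overlap were lbp-2, given above, and lbp-3, at 124 to 148 against 151 to 193 CPM. For lbp-5 the levels were 72.1 to 79.8 against 81.5 to 87.0 CPM, again without overlap. The ranges of the other members overlapped in this comparison, and the share of all genes that separate so is not given here. The log2 change of lbp-1 was −0.46 (SE 0.24, 95% interval −0.95 to 0.03, unadjusted p 0.064, edgeR adjusted p 0.957), with 0.0% of all genes called. With the replicate number as a block, which by the deviations of the libraries pairs those of 0.5% ethanol and water, the log2 change was −0.46 (SE 0.16, unadjusted p 0.00995, edgeR adjusted p 0.342), and 10.8% of genes had an unadjusted p below 0.05. In F1 the log2 change of lbp-1 in 0.5% ethanol was −0.27 (SE 0.24), with 133, 100.1 and 109 CPM in ethanol against 179, 103 and 121.7 CPM in the water libraries of batch 5. Both lbp-1 and lbp-2 were thus lower in 0.5% ethanol in 3 of 3 same-numbered pairs of F1 and 3 of 3 of F3, but neither passed the test with or without the block. In F3, lbp-3, lbp-5 and lbp-8 were also lower in 3 of 3 pairs, and in F1 in 2, 1 and 2 of 3. By contrast lbp-4 was lower in 0 of 3 in each generation. The share of all genes that go 1 way in every pair, here and below, is not given.

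No change of lbp-5, lbp-6, lbp-7 or lbp-8 passed the test. Under 0.05% ethanol, lbp-6 changed by −0.01 (SE 0.22) in F1 and 0.09 (SE 0.22) in F3 on the log2 scale, and under 0.5% ethanol by −0.03 (SE 0.27) and −0.09 (SE 0.27). The log2 changes of lbp-5 lay between −0.12 and 0.06 in the 4 comparisons. For lbp-8, lower in 0.05% ethanol in 5 of 5 same-numbered pairs of F1 and 4 of 5 of F3, they were −0.47 (SE 0.34) and −0.20 (SE 0.33) under 0.05% ethanol and −0.08 (SE 0.41) and −0.31 (SE 0.41) under 0.5% ethanol, in F1 and F3. The largest value above 0 for lbp-7 was 0.28 (SE 0.21), under 0.05% ethanol in F3, and with the replicate block it was 0.26 (SE 0.12, unadjusted p 0.0375, edgeR adjusted p 1.00). With the block 3.0% of genes had an unadjusted p below 0.05 there, and same-numbered libraries of this comparison did not all deviate together.

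The log2 changes of lbp-9 and lbp-4 were measured most precisely, with an SE of 0.15 to 0.19 on the log2 scale. Those of lbp-9 ran from −0.07 to 0.07, and its 95% intervals stayed between −0.47 and 0.46. Those of lbp-4 ran from 0.05 to 0.27, the highest under 0.5% ethanol in F1 (95% interval −0.11 to 0.65), and lbp-4 was higher in 0.5% ethanol in each of the same-numbered pairs, with 0 of 3 lower in F1 and 0 of 3 in F3. With the replicate block the F1 change was 0.28 (SE 0.10, unadjusted p 0.0150, edgeR adjusted p 1.00), and 4.71% of genes had an unadjusted p below 0.05. For lbp-3 the log2 changes were −0.04 and 0.00 under 0.05% ethanol and −0.32 and −0.31 under 0.5% ethanol, with an SE of up to 0.33. Over all members the intervals reached from −1.16 to 0.55 (F1) and −0.89 to 0.72 (F3) at the lower dose, and from −1.18 to 0.76 (F1) and −1.15 to 0.54 (F3) at the higher. The lower ends were those of lbp-8 and, under 0.5% ethanol in F1, lbp-2.

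The doses, and the generations in their response, were also compared. The contrast of 0.5% with 0.05% ethanol called 0 of 9 members in F1 (0.0% of genes) and 0 of 9 in F3 (0.0% of genes). A contrast of the responses of both generations (F3 minus F1) called 0 of 9 members for 0.05% ethanol (0.0% of genes) and 0 of 9 for 0.5% ethanol (0.0% of genes), with an unadjusted p of 0.372 or more for each member. Without the replicate block, no member had an unadjusted p below 0.05 in these 4 contrasts, against 1.29% and 4.32% of genes between the doses in F1 and F3, and 0.945% and 1.03% between the generations at the lower and the higher dose. With the block, lbp-1 (−0.34, SE 0.16, unadjusted p 0.0477) and lbp-7 (−0.35, SE 0.15, unadjusted p 0.0277) had one between the doses in F3, against 10.2% of genes, with edgeR adjusted p-values of 0.486 and 0.442.

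**Figure D4:**
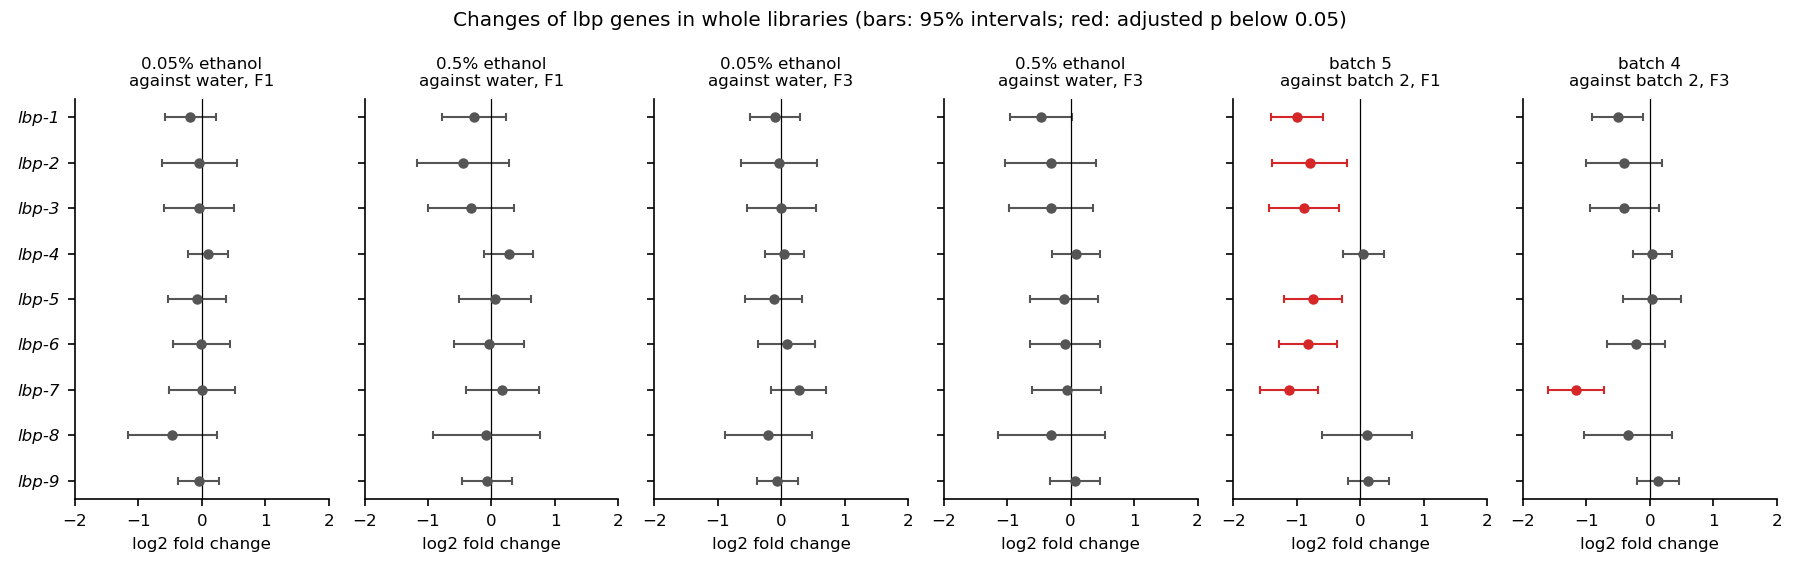
Fitted log2 change of each lbp gene with its 95% interval, for ethanol against water and for the comparisons between batches, from counts summed per library. In the 4 ethanol comparisons every interval crosses 0, while 6 members, in red for an adjusted p below 0.05, lie below 0 in batch 5 against batch 2 in F1 and lbp-7 in batch 4 against batch 2 in F3.

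Within cell classes, the same comparison was made on counts summed per library and class, in 6 classes with enough nuclei, which gave 43 tests of a member among 44892 tests of a gene. No member was called in any class, at either dose and in either generation (0.0% of tests called in each of the 4). At an unadjusted p below 0.05 there were 2 (F1) and 1 (F3) of the 43 tests at the lower dose, against 2.62% and 2.69% of all tests, and 3 (F1) and 0 (F3) at the higher, against 2.84% and 2.51%. The smallest p-values were those of lbp-6 in gonadal sheath-like sums under 0.05% ethanol in F1 (log2 change 0.99, SE 0.35, edgeR adjusted p 1.00) and of lbp-7 in intestine-like sums under 0.05% ethanol in F3 (0.62, SE 0.22, edgeR adjusted p 1.00).

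In the classes of highest level, the groups are given within batches, since the batches differed. In body wall muscle-like nuclei of F1, lbp-2 stood at 2901 ± 1544 CPM in water, 2763 ± 1247 in 0.05% ethanol and 2418 ± 748 in 0.5% ethanol in batch 5 (n = 3 each), and at 4088 ± 215 in water and 4936 ± 1648 in 0.05% ethanol in batch 2 (n = 2 each). In F3 it stood at 2878 ± 245, 2533 ± 141 and 2771 ± 282 CPM in batch 4 (n = 3 each, in the same order) and at 3590.0 ± 569 and 4108 ± 851 CPM in batch 2 (n = 2 each). Water overlapped each ethanol group in every batch.

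In intestine-like nuclei, lbp-6 stood at 556 ± 240.3 CPM in water, 629 ± 141 in 0.05% ethanol and 619 ± 264 in 0.5% ethanol in F1 (batch 5), and at 946 ± 166, 1069.9 ± 55.0 and 916 ± 130.3 CPM in F3 (batch 4, n = 3 each). In F1 of batch 2 it stood at 808 ± 40.1 CPM (780 to 836) in water and 966 ± 136 CPM (869 to 1062) in 0.05% ethanol (n = 2 each). In F3 of batch 2 the levels were 1139 to 1253 and 1288 to 1298 CPM (n = 2 each). In both generations of batch 2, lbp-6 was higher in ethanol without overlap. In germline-like nuclei, lbp-9 stood at 504 ± 91.3, 522 ± 104 and 521 ± 91.2 CPM in F1 (batch 5) and at 504 ± 75.0, 455 ± 38.3 and 533 ± 71.5 CPM in F3 (batch 4, n = 3 each). In batch 2 it stood at 503 ± 15.4 and 688 ± 82.8 CPM in F1, without overlap, and at 468 ± 61.3 and 481 ± 88.9 CPM in F3 (n = 2 each). These separations in batch 2 rest on 2 libraries on each side, and the share of all genes that separate so is not given here. None of the ethanol comparisons of these 3 members passed the edgeR test in these classes.

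Between batches, members did pass the test. The fit compared batches at equal treatment, and since batch 2 had no 0.5% ethanol, the levels given for batches 4 and 5 are those of the 6 water and 0.05% ethanol libraries of each. In F1, 6 of 9 members were lower in batch 5 than in batch 2, where 48.7% of all genes were called and 24.6% were called lower. Batch 2 was the higher batch for all 6. The median log2 difference was −0.80 over the 9 members and −0.05 over all genes tested.

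The largest of these differences was that of lbp-7, with a log2 difference of −1.12 (SE 0.22, edgeR adjusted p 3.27e-04). The 4 batch 2 libraries of F1 held 27.8 to 28.9 CPM of lbp-7 and the 6 of batch 5 held 8.60 to 19.7 CPM, without overlap. Of all genes, 31.0% did not overlap between these libraries and 10.6% did so with batch 5 lower. For lbp-1 the difference was −0.99 (SE 0.19, edgeR adjusted p 2.92e-04), with 195 to 262 against 75.0 to 179 CPM, again without overlap.

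Next came lbp-3, at −0.88 (SE 0.27, edgeR adjusted p 0.00903), with 177 to 235.2 CPM in batch 2 and 53.1 to 173 CPM in batch 5. For lbp-6 the difference was −0.82 (SE 0.22, edgeR adjusted p 0.00398), with 488 to 661 against 189 to 435 CPM. These 2 genes did not overlap between the batches either. For lbp-2 (−0.80, SE 0.29, edgeR adjusted p 0.0261) and lbp-5 (−0.74, SE 0.22, edgeR adjusted p 0.00858) the ranges overlapped.

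The remaining members did not pass the test. Their log2 differences were 0.05 (SE 0.15) for lbp-4, 0.13 (SE 0.16) for lbp-9 and 0.10 (SE 0.34) for lbp-8. Without the 3 shallow libraries of batch 5, 5 members were still called, at −0.96 for lbp-7, −0.81 for lbp-1, −0.56 for lbp-3, −0.54 for lbp-6 and −0.50 for lbp-5, and lbp-2 was not. The call of lbp-2 was also lost without 0.05% ethanol batch 2 replicate 2 (edgeR adjusted p 0.0921), water batch 2 replicate 2 (0.0797) or water batch 5 replicate 2 (0.0567).

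Other measures moved with this difference. The summed level of the 8 body wall muscle markers, all detected, was 12053 to 16438 CPM in the F1 libraries of batch 2 and 4721 to 10293 CPM in batch 5, without overlap, while body wall muscle-like nuclei were 9.25% ± 0.841 (SD, n = 4) and 10.7% ± 1.46 (n = 6) of nuclei. The 9 epidermis markers, all detected, summed to 10729 to 14320 CPM in batch 2 and 6290 to 8192 CPM in batch 5, and epidermis-like nuclei were 2.69% ± 1.45 and 0.232% ± 0.134 of nuclei. The 8 germline markers summed to 589 to 853 CPM in batch 2 and 919 to 1439 CPM in batch 5, and germline-like nuclei were 22.6% ± 2.63 and 32.8% ± 3.84 of nuclei. The rrn-3.1 share was 0.180% to 0.268% of UMIs in batch 2 and 0.902% to 13.6% in batch 5. Their part in the differences of the lbp genes was not tested.

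In F3 the batches were closer. Of 9 members, only lbp-7 was called, lower in batch 4 than in batch 2 (log2 difference −1.16, SE 0.21, edgeR adjusted p 4.68e-04), where 20.0% of all genes were called and 11.4% were called lower. Its levels were 48.2, 35.9, 38.1 and 45.7 CPM in the 4 libraries of batch 2 and 12.9 to 26.5 CPM in the 6 of batch 4, without overlap, as for 18.8% of all genes (10.2% lower). For lbp-1 the log2 difference was −0.50 (SE 0.19, edgeR adjusted p 0.0708), and it passed with DESeq2 and without the 3 shallow libraries, where lbp-3 passed as well (3 members called). The other members lay between −0.40 and 0.13, and the ranges of batch 2 and batch 4 overlapped for all 9 except lbp-7. Beside this, the 8 intestine markers summed to 22126 to 28213 CPM in batch 2 and 33422 to 37466 CPM in batch 4, and intestine-like nuclei were 8.44% ± 1.36 (n = 4) and 11.7% ± 0.874 (n = 6) of nuclei. Epidermis-like nuclei were 1.86% to 2.90% in batch 2 and 0.265% to 0.974% in batch 4, while the summed epidermis markers overlapped. The rrn-3.1 share was 0.314% to 1.18% in batch 2 and 1.37% to 5.00% in batch 4. Their part in the difference of lbp-7 was not tested.

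For part of the members the difference between batches was also called within cell classes, in tests added after the whole-library values had been seen. In F1, 18 of the 43 tests of a member were called, all lower in batch 5, where 18.2% of all tests were called and 10.5% were called lower. The broadest was lbp-1, lower in all 5 classes tested, from −0.85 in body wall muscle-like to −1.89 (SE 0.21) in germline-like sums on the log2 scale. In germline-like nuclei lbp-1 stood at 119 ± 32.3 CPM (n = 4) in batch 2 and 30.3 ± 13.2 CPM (n = 6) in batch 5. For lbp-3 and lbp-6, 4 of 5 and 4 of 6 classes were called, and for lbp-2 it was 3 of 6. For lbp-5, 1 of 5 classes was called. For lbp-7, with the largest difference over whole libraries, 1 of 4 was called, with log2 differences from −0.12 in germline-like to −1.25 in body wall muscle-like sums, and in intestine-like nuclei it stood at 36.9 ± 3.50 CPM (n = 4) in batch 2 and 33.2 ± 14.5 CPM (n = 6) in batch 5. Without water F1 batch 2 replicate 2 the 18 calls were 11, and without the nuclei whose barcode was shared within a batch there were again 18 calls.

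In its main class, lbp-2 stood at 4512 ± 1077 CPM (n = 4) in batch 2 and 2832 ± 1258 CPM (n = 6) in batch 5, a log2 difference of −0.91 (SE 0.22, edgeR adjusted p 0.00446) in body wall muscle-like sums. For lbp-6 in intestine-like sums the levels were 887 ± 123 (n = 4) and 593 ± 181 CPM (n = 6), a log2 difference of −0.68 (SE 0.19, edgeR adjusted p 0.0158). By contrast 0 of 6 classes were called for lbp-9 and 0 of 5 for lbp-4.

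In F3, 8 of the 43 tests were called, all lower in batch 4, where 7.8% of all tests were called and 5.08% were called lower. The calls were lbp-7 in all 4 classes tested (log2 differences of −0.84 in intestine-like to −1.34 in pharyngeal muscle-like sums), lbp-1 in 2 of 5, and lbp-2 and lbp-3 in 1 each, the intestine-like class. The 8 calls were 6 without the nuclei of shared barcodes, 4 without water F3 batch 2 replicate 1, and 5 without 0.05% ethanol F3 batch 2 replicate 1, 0.05% ethanol F3 batch 4 replicate 2 or water F3 batch 4 replicate 1.

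**Figure D5:**
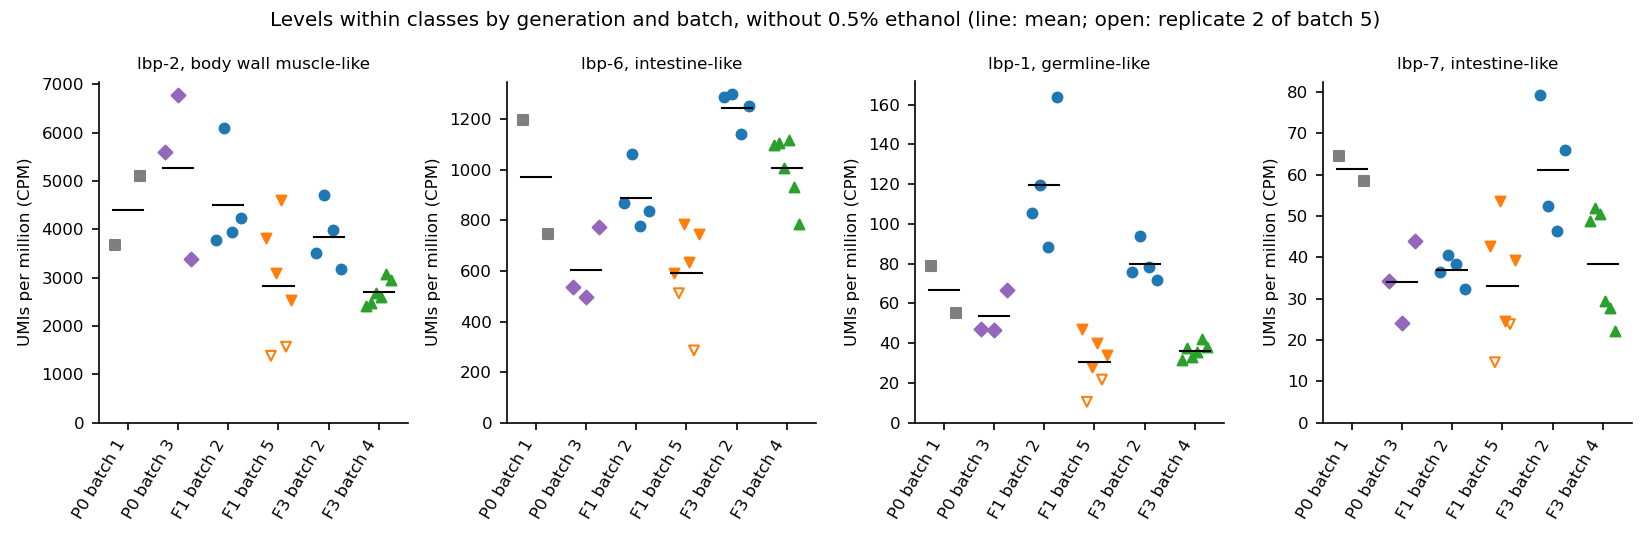
Level of lbp-2 in body wall muscle-like, lbp-6 in intestine-like, lbp-1 in germline-like and lbp-7 in intestine-like nuclei by generation and batch, in CPM of the class in a library; points are libraries (open for replicate 2 of batch 5, without those of 0.5% ethanol) and lines are means. Levels of lbp-2 in body wall muscle-like nuclei are 4512 CPM in batch 2 and 2832 CPM in batch 5 of F1.

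The 3 shallow libraries of batch 5 shared the lower levels across most of the family. Against the other 6 libraries of their batch, the ratio of mean CPM was 0.384 for lbp-8, 0.385 for lbp-3, 0.446 for lbp-2, 0.453 for lbp-5, 0.487 for lbp-6 and 0.510 for lbp-7. These 6 members, lbp-1 (0.686) and lbp-9 (0.736) did not overlap between the 2 sets of libraries, while lbp-4 (0.803) did. Of all genes, 24.6% did not overlap between these sets and 14.3% did so with the 3 libraries lower. In body wall muscle-like nuclei, lbp-2 stood at 1385 to 1573 CPM in the 3 and at 2535 to 4596 CPM in the other 6. In the same nuclei lbp-1 overlapped, at 91.7 to 197 against 114 to 207 CPM, and in intestine-like nuclei its mean was 74.5 CPM in the 3 and 57.8 CPM in the other 6. These sets were seen in the data and are no groups of the study, so they were not tested.

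Batch 2 alone held both generations. There, 0 of 9 members were called between F3 and F1, where 2.77% of all genes were called. At an unadjusted p below 0.05 there was 1 member, against 15.7% of genes. The nearest was lbp-7, with 48.2, 35.9, 38.1 and 45.7 CPM in F3 against 27.99, 27.8, 28.9 and 28.2 CPM in F1, without overlap (log2 difference 0.66, SE 0.23, edgeR adjusted p 0.144). The share of all genes without overlap between these libraries is not given here. For lbp-6 the 4 libraries of F3 held 726, 647, 679 and 727 CPM and those of F1 held 492, 661, 488 and 526 CPM, which overlapped at 1 library (log2 difference 0.45, SE 0.24, edgeR adjusted p 0.378). Without the 3 shallow libraries of batch 5, which enter the estimate of the spread only, the adjusted p was 0.0551 for lbp-7 and 0.0542 for lbp-6. Within classes 0 of 43 tests of a member were called, where 0.479% of all tests were called. At an unadjusted p below 0.05 there were 9 of the 43, against 11.7% of all tests.

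Other genes of fatty acid transport and use were read beside the family, by counts alone. Of 13 genes of lysosomal lipid signalling and its receptors, 8 genes for secreted fatty acid and retinol binding (far) proteins, 7 for acyl-CoA binding and 14 for fatty acid oxidation, all were tested and 0 were called in each of the 4 ethanol comparisons. In 0.05% ethanol in F1, 4 of 8 far genes had a log2 change above 0 (median 0.005). In 0.05% ethanol in F3 and in 0.5% ethanol in both generations all 8 far genes had a log2 change below 0, with medians of −0.09, −0.24 in F1 and −0.43 in F3, against 0.01, −0.02 and 0.00 over all genes, but none passed the test. The fatty acid oxidation genes also lay mostly below 0, with 1 (F1) and 3 (F3) of 14 above 0 at the lower dose and 2 (F1) and 1 (F3) at the higher, and medians of −0.07, −0.08, −0.12 and −0.14. Between batch 5 and batch 2 in F1, where 48.7% of all genes were called and 24.6% called lower, 3 of 8 far genes were lower and 0 higher, at −1.23 (SE 0.21) for far-1, −0.86 (SE 0.31) for far-3 and −0.64 (SE 0.17) for far-7 on the log2 scale. Of the 14 fatty acid oxidation genes 5 were lower, acox-1.1 (−0.59, SE 0.14), dhs-28, daf-22, acdh-1 and ech-6, and 1 was higher, acdh-2 (2.04, SE 0.28).

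Of the 13 signalling genes, nhr-80 (−0.46, SE 0.18), for a receptor that acts with LBP-8, and the lipase gene lipl-3 (−0.63, SE 0.25) were lower and the nuclear receptor gene nhr-66 (0.37, SE 0.11) was higher in batch 5. The other partners of LBP-8, lipl-4 (−1.14, SE 0.57) and nhr-49 (0.07, SE 0.10), and lbp-8 itself did not pass the test. Among the 7 acyl-CoA binding genes acbp-3 (−2.26, SE 0.31) and acbp-6 (−0.81, SE 0.31) were lower and acbp-5 (0.60, SE 0.13) was higher. In F3, where 20.0% of all genes were called, acbp-3 and acbp-6 were lower and acbp-5 higher in batch 4 as well, 4 oxidation genes (acdh-2, kat-1, daf-22 and ech-1.2) and sbp-1 were higher, and 0 far genes were called. The median log2 difference in F3 was 0.30 for the oxidation genes, 0.11 for the signalling genes, −0.07 for the far genes and −0.28 for the acyl-CoA binding genes, against −0.01 over all genes.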

How the data were processed

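Nuclei of whole worms were counted in 31 libraries. The authors deposited unnormalised UMI counts for every gene in each nucleus, made with Cell Ranger on the build ce10, per the submitters' processing notes; the use of strand is not given in the sources used here. Gene names are from the files, and chromosomes, exon lengths and overlaps from the WBcel235 annotation (Ensembl 115), which matched 46817 of 46904 identifiers.

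The members, lists and tests were chosen with earlier results of these data known. Likely doublets (0.8% per 1000 nuclei) were removed, and nuclei were clustered (2000 variable genes without the members, 30 principal components, 15 neighbours, leidenalg 0.10.2, resolution 1). Clusters were named from marker lists. Named genes are the 9 members, called list genes and the 3 genes most like each member over clusters.

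Counts summed per library, or per library and class, were tested with edgeR 4.0.16 (quasi-likelihood, TMM, filterByExpr) in 1 fit of 26 libraries with an intercept per batch and generation, Benjamini-Hochberg adjustment over all genes or all gene and class tests, and a threshold of 0.05. The fits were checked on simulated counts. Alternatives were DESeq2 1.42.0, other size factors, no filter, fewer libraries and a replicate block. Same-numbered libraries deviated together in every pair for 0.05% ethanol and water in F1 (r 0.523 to 0.773, 5 pairs) and for 0.5% ethanol and water in F1 (0.564 to 0.688, 3 pairs) and F3 (0.208 to 0.660, 3 pairs), but not for 0.05% ethanol and water in F3 (lowest r −0.07). In batch 2, with 2 libraries per group, both pairs of a comparison give 1 value of r by construction (0.773 in F1 and −0.07 in F3). The pairing rests on these deviations, since the meaning of a replicate number is not labelled. Wilson intervals cover counting error only, and those of log2 changes come from the fit over libraries.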

Additional observations from a re-analysis of the deposited data

Results flagged for a closer look

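Of 45 sets of a member and a group of 4 or 5 libraries, 3 held a library far from the others by Dixon's criterion, which chance meets in about 1 in 20 sets. For lbp-2 in 0.05% ethanol F3, batch 2 replicate 2 was highest at 2573 CPM, the nearest at 1364 CPM. For lbp-5 in water F3, batch 2 replicate 1 was lowest at 60.7 CPM, the nearest at 81.5 CPM. For lbp-9 in unsorted P0, batch 3 replicate 3 was lowest at 536 CPM, the nearest at 590.1 CPM.

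Of the 18 tests of whether a member responded differently to ethanol in F3 than in F1, 0 were called, and the smallest unadjusted p was 0.372 (edgeR's quasi-likelihood test).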

How the results depend on the processing

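Of 4055 alternatives to 125 fitted values of the members, 3969 stayed the same, 69 fell short of the threshold, 6 passed it, 11 moved and 0 reversed. Where a value was called in either fit, the same meant an equal direction and side of the threshold. Where it was called in neither, the same meant a shift smaller than the SE, and moved meant a larger one. Direction was not checked for values called in neither fit, so a reversal could not be counted there. The count of members called in batch 4 against batch 2 in F3 (1) was 3 without the 3 shallow libraries of batch 5, 2 with DESeq2 and 1 to 2 when leaving out each library. Within classes, leaving out each library gave 11 to 23 calls in F1 and 4 to 9 in F3, and the 0 calls of F3 against F1 in batch 2 were 1 with no filter on low counts. The cause of these shifts was not tested. With the replicate block no call of a member changed: 0 members were called in each ethanol comparison, and at an unadjusted p below 0.05 there was 1 member in 0.5% ethanol in F1 (lbp-4) and in F3 (lbp-1) and in 0.05% ethanol in F3 (lbp-7), against 4.71%, 10.8% and 3.0% of genes, and there were 2 between the doses in F3 (lbp-1 and lbp-7), against 10.2%. Leaving out nuclei of shared barcodes, an alternative chosen after seeing the data, gave the same counts of members called over whole libraries. The call of lbp-2 between batch 5 and batch 2 was lost with only the libraries of that comparison. The block could not be fitted to the comparisons between batches. Among class levels, with at least 50 nuclei the highest class was neuron-like for lbp-1 at 269 CPM and epidermis-like for lbp-7 at 45.7 CPM (4 libraries). With doublets kept, body wall muscle-like nuclei held 4830 CPM of lbp-2 and 456 CPM of lbp-3. At resolution 0.5, lbp-9 was highest in gonadal sheath-like nuclei at 605 CPM, and at resolution 2, lbp-3 stood at 395 CPM in body wall muscle-like nuclei. Unthinned, the shares of nuclei with a UMI in the class of highest level were 36.6% for lbp-1, 75.4% for lbp-2, 32.8% for lbp-3, 4.87% for lbp-4, 21.5% for lbp-5, 69.0% for lbp-6, 10.1% for lbp-7, 4.37% for lbp-8 and 34.0% for lbp-9. Depth limits lbp-8 most, with 2 UMIs in the shallowest case.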
